A study of Mus musculus with 14 samples.

Results

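The 7 genes described here encode the TAM receptors Axl, Mertk and Tyro3, their ligands Gas6 and Pros1, the bridging protein Mfge8 and the scavenger receptor Stab1. They were chosen by name, for their roles in the recognition of apoptotic cells, from the 23282 genes of the deposited table, and all 7 were in it. RNA was taken from epididymal white adipose tissue (eWAT) of wild-type male C57BL/6J mice that were obtained at 4 weeks of age. The control group ate standard chow and the WD group a Western diet rich in fat with added cholesterol, both for 20 weeks. Batch 1 held 4 control and 5 WD libraries and batch 2 held 5 control libraries, so diet and batch cannot be told apart when the WD group is set against the batch 2 controls. The tissue was whole fat, in which adipocytes, stromal cells, vessels and immune cells contribute RNA together.

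Dying cells expose phosphatidylserine, a lipid that healthy cells keep on the inner leaflet of the membrane. Gas6, protein S (Pros1) and Mfge8 bind this lipid and bridge the dying cell to the phagocyte, Gas6 and protein S through the TAM tyrosine kinases and Mfge8 through integrins of the alpha v family. Stabilin-1 (Stab1) binds phosphatidylserine directly, and TAM signalling also restrains inflammatory responses, a role of interest in obese fat, where macrophages gather around dying adipocytes.

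Axl and Mfge8 were the members that passed edgeR's test against a control group, and the promoters of these genes are shown with that of Stab1, whose upstream sequence differed from theirs in base motifs. Each is the RefSeq sequence of GRCm38.p6 from 250 bases before to 50 bases after the annotated start, read 5′ to 3′ on the gene's strand, with matches to the GC box GGGCGG or its complement in capitals. The windows are chr7:25788684-25788983 on the minus strand for Axl, chr7:79149011-79149310 on the minus strand for Mfge8 and chr14:31168592-31168891 on the minus strand for Stab1.
Axl: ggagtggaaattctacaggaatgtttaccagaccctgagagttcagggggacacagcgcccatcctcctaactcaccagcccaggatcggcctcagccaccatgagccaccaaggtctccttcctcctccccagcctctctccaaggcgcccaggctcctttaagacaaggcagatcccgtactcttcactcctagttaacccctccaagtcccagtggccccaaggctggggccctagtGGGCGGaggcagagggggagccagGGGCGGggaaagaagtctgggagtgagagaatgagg
Mfge8: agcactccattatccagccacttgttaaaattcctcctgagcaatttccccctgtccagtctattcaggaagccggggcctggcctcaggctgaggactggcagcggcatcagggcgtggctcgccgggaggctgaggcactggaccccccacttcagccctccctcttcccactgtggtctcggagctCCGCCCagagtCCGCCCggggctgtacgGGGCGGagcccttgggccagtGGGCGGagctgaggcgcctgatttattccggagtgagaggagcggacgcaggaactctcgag
Stab1: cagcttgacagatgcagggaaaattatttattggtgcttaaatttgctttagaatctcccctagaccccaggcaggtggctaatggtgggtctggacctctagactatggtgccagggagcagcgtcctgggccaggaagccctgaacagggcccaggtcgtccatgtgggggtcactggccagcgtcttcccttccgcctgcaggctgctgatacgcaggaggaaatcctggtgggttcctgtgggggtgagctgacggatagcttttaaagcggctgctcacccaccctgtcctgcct

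Counting overlapping matches on both strands, the GC box occurred 2 times in the window of Axl, 4 times in that of Mertk, 6 in Tyro3, 4 in Gas6, 5 in Pros1, 4 in Mfge8 and 0 in Stab1. The same search found it in 35.7% of the 32851 mouse promoters of that length. The Tyro3 window, chr2:119799264-119799563, lay inside the deposited Tyro3 interval, chr2:119797740-119818103, and not at its start. The AP-1 motif TGACTCA (in 5.20% of all promoters), the PU.1 motif GAGGAAGT (3.20%) and the CLEAR-type E-box TCACGTGA (0.974%) were in none of the 7 windows. The STAT motif TTCNNNGAA (8.30%) was in that of Pros1 alone. These are matches of letters in a window and say nothing about whether a factor binds there.

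Total counts ran from 10278970 to 13712254 per library. A floor of 3 counts equals 0.219 to 0.292 CPM, the count scaled to the size of the library. A level under this floor was not taken as detection, though it stayed in means and tests. The reads come from the 3′ ends of transcripts, CPM use TMM factors over the 14 libraries, and counting error is the only error that depth covers. The fat markers were present, with 5 adipocyte genes (Adipoq, Plin1, Cidec, Lipe and Pck1) summing to 7590 to 11147 CPM in WD libraries. In controls these genes summed to 1675 to 15433 CPM in batch 1 and 20490 to 26029 CPM in batch 2. A pair of batch 1 controls stood apart. In control replicate 1 of batch 1, 6 epididymis genes (Crisp1, Lcn5, Lcn8, Rnase10, Gpx5 and Adam7) summed to 154631 CPM, against at most 49.6 CPM in any other library, and its adipocyte sum of 1675 CPM was the lowest. In control replicate 4 of batch 1, 7999 genes had a count, the fewest of the 14 libraries, and Fcgr1, Dpp4, Pi16, Pecam1 and Cdh5 were at 0. Members' values are therefore also given without these libraries where a result rests on them.

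**Figure D1:**
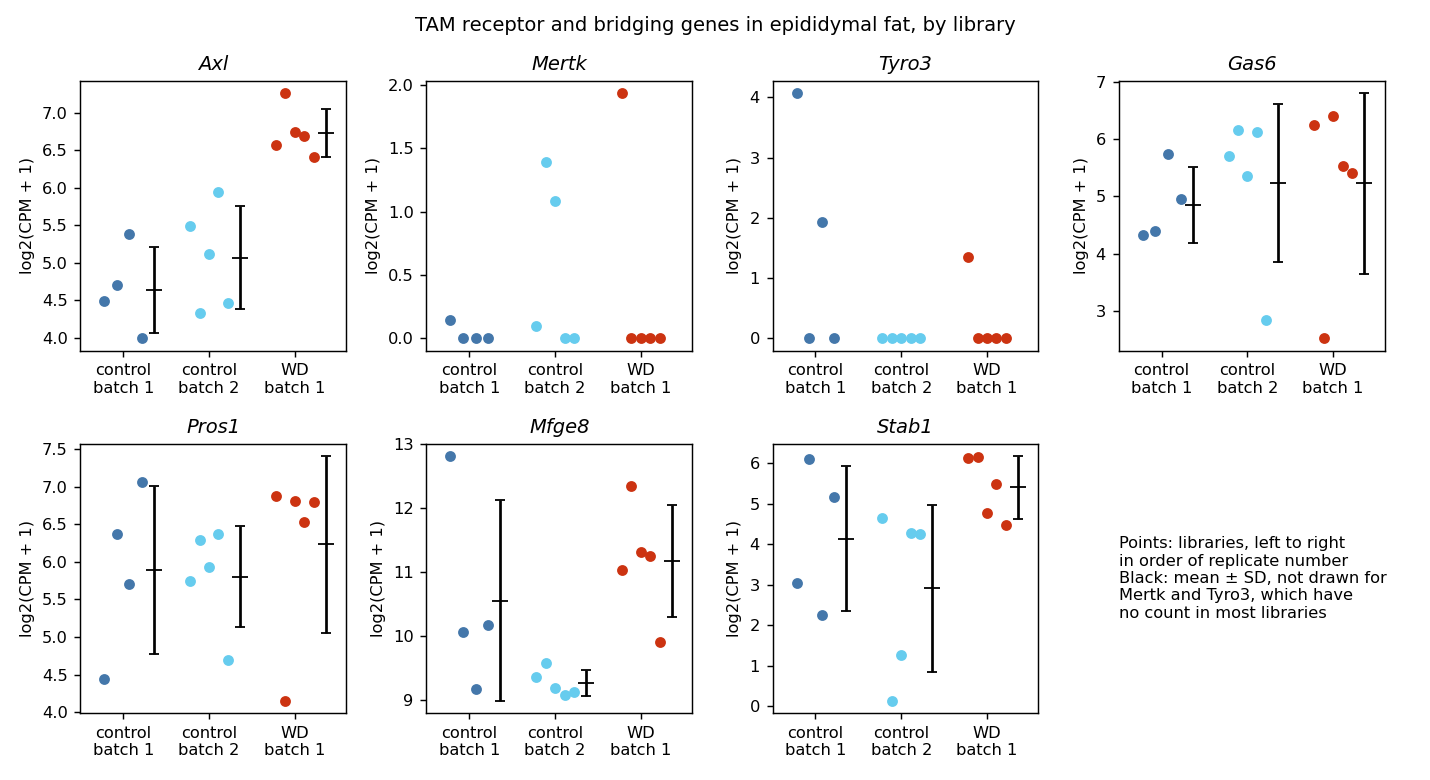
Log2(CPM + 1) of the 7 genes in each library of the 3 groups, with points ordered by replicate number and black bars for mean ± SD. Axl is higher in all 5 WD libraries than in all 9 controls, Mertk and Tyro3 sit at 0 in most libraries, and 1 batch 1 control lies above every other library for Mfge8.

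Axl, the TAM receptor found on activated phagocytes and on many stromal and vessel cells, was higher in every WD library than in any control. In the batch 1 controls it had 199, 299, 487 and 205 counts, or 25.5 ± 10.9 CPM (SD, n = 4). In the WD group it had 1329, 1421, 1430, 1297 and 1009 counts, or 108 ± 26.4 CPM (n = 5). In the batch 2 controls it had 625, 200, 452, 789 and 210 counts, or 35.7 ± 17.1 CPM (n = 5). The lowest WD library, at 84.1 CPM, lay above the highest control, at 60.3 CPM, so the WD group overlapped neither control group.

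Against the batch 1 controls Axl was 4.22-fold higher (log2 fold change 2.08, SE 0.37), and its edgeR quasi-likelihood FDR was 0.300 at an unadjusted p of 9.87e-05. In that comparison 0% of 12157 genes passed an FDR of 0.05, with 628 under an unadjusted p of 0.05, and DESeq2 called 114. Axl was among the DESeq2 calls (FDR 0.000345). Leaving out control replicate 4 of batch 1 brought the edgeR FDR of Axl to 0.0496. For Axl this FDR was 0.305 without control replicate 1 and 0.0527 without replicates 1 and 4 (log2 1.72). The exact permutation p of its log2(CPM + 1) was 0.00794, the smallest that 4 libraries against 5 can give, and 3.03% of all genes tested were higher in every WD library than in every batch 1 control.

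Against the batch 2 controls Axl rose 2.99-fold (log2 1.58, SE 0.30, edgeR FDR 0.00372). There 6.4% of 12070 genes passed the threshold and 3.93% passed it upward. All 5 WD libraries were above all 5 controls, a pattern shared by 4.99% of genes, with an exact permutation p of 0.00794, again the smallest possible. With the 9 controls as 1 group the rise was 3.43-fold (log2 1.78, SE 0.31, edgeR FDR 0.00973), among 0.53% of 12653 genes called and 0.435% called upward. The exact permutation p was 0.0005, the smallest this design allows, and 1.13% of genes had every WD library above every control. A fit with a batch term, which leaves the diet effect to batch 1, gave a log2 fold change of 2.07 and an edgeR FDR of 0.102. Between the control groups Axl had a log2 fold change of 0.48 (batch 2 over batch 1, SE 0.48, edgeR FDR 0.942). Axl is one of the genes that the study itself picked as higher in the WD group from these libraries, so its direction here is not independent evidence of that choice.

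The summed level of 7 macrophage genes (Adgre1, Cd68, Csf1r, Itgam, Fcgr1, Mrc1 and Cd163) was also higher in the WD group on average. It was 1101 to 1692 CPM in the WD group, against 189 to 1232 CPM in controls of batch 1 and 290 to 616 CPM in those of batch 2. The 1232 CPM came from control replicate 4 of batch 1, which had the lowest Axl of the 14 libraries, 14.9 CPM. Of the 7, 0 passed edgeR's test against the batch 1 controls, 5 rose against the batch 2 controls (Adgre1, Cd68, Csf1r, Mrc1 and Fcgr1) and 2 rose against all controls (Adgre1 and Csf1r), and Fcgr1 was at 0 in control replicate 4 of batch 1 and control replicate 3 of batch 2. Cd163, a scavenger receptor of resident macrophages, had negative log2 fold changes in all 3 diet comparisons, -0.51 against batch 1, -0.72 against batch 2 and -0.64 against all controls, at edgeR FDRs of 1.00, 0.121 and 0.685. The log2 ratio of Axl to this sum was -3.75 ± 0.30 in the WD group (n = 5), -3.61 ± 0.35 in the batch 2 controls (n = 5) and -4.38 ± 1.45 in the batch 1 controls (n = 4). On that scale the WD libraries lay within the range of the batch 1 controls, -6.28 to -3.08, and overlapped the batch 2 controls. The ends of that range came from control replicates 4 and 1 of batch 1, the pair that stood apart. The range was not computed without them. In control replicates 2 and 3 of batch 1, Axl was at 24.9 and 40.6 CPM beside macrophage sums of 688 and 443 CPM. The log2 ratio of Axl to 5 stromal genes (Pdgfra, Dpp4, Pi16, Dcn and Col1a1) ran from -5.26 to -3.50 in the WD group, from -7.24 to -5.53 in the batch 1 controls and from -6.54 to -5.29 in the batch 2 controls. To 5 endothelial genes (Pecam1, Cdh5, Tek, Emcn and Kdr) it ran from -0.19 to 0.85 in the WD group, with control maxima of -1.40 in batch 1 and -0.46 in batch 2. The WD group thus lay above both control groups relative to the stromal or endothelial sums. Relative to the macrophage sum it overlapped the batch 2 controls, while the batch 1 range was set by the pair that stood apart. For stromal genes the gap to batch 2 was small, -5.26 against -5.29. Dcn dominated that sum, at 2137 CPM on average in the WD group against 198 CPM for Col1a1. By itself Col1a1 rose by log2 1.47 against the batch 2 controls, beside 1.58 for Axl. In whole fat, more cells of a type and more RNA per cell cannot be told apart, and the part of macrophage content in the Axl difference was not tested.

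**Figure D2:**
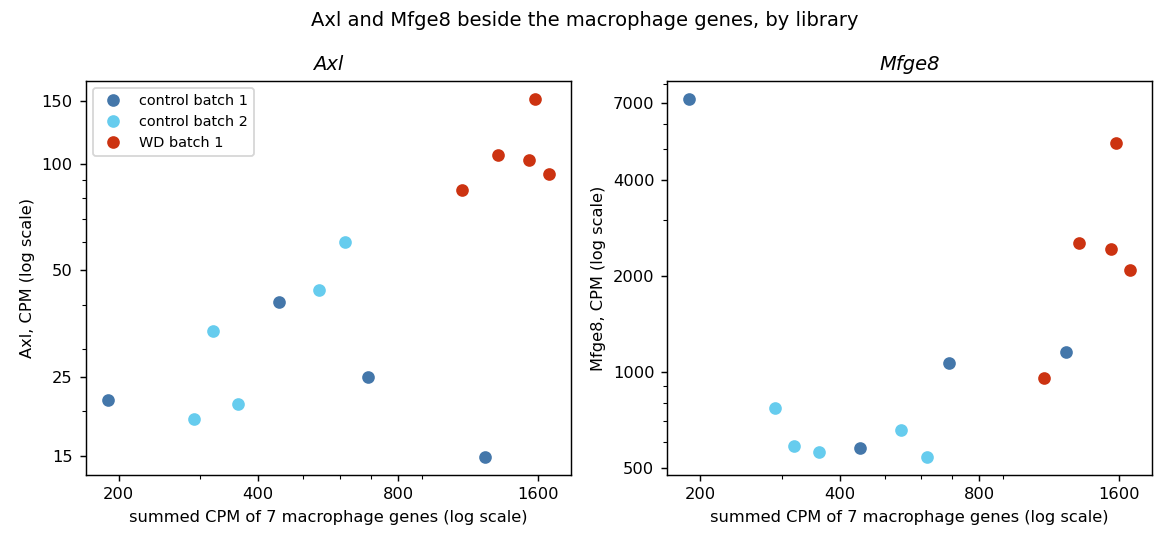
CPM of Axl (left) and Mfge8 (right) against the summed CPM of 7 macrophage genes in each of the 14 libraries, with log scales on both axes. The WD libraries have 84.1 CPM of Axl or more at macrophage sums of 1101 CPM or more. Control replicate 4 of batch 1 has the lowest Axl, 14.9 CPM, at a macrophage sum of 1232 CPM. The batch 1 control with the highest Mfge8, 7189 CPM, has the lowest macrophage sum, 189 CPM.

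Mertk, the TAM receptor of resident macrophages, and Tyro3, the family member best known from the nervous system, were hardly detected. Mertk had 1, 0, 0 and 0 counts in the batch 1 controls, 40, 0, 0, 0 and 0 in the WD group and 1, 17, 15, 0 and 0 in the batch 2 controls. Tyro3 had 146, 0, 34 and 0 counts in the batch 1 controls, 22, 0, 0, 0 and 0 in the WD group and 0 in all 5 batch 2 controls. For Mertk 3 of the 14 libraries exceeded 3 counts, and for Tyro3 also 3, and WD replicate 1 was the WD library with counts of both. Neither gene passed edgeR's filter on low counts, so 5 of the 7 members were tested, and no change of these receptors could be read from these counts. The 146 counts of Tyro3 (15.8 CPM) came from control replicate 1 of batch 1, the library with the epididymis genes, and without it the highest Tyro3 value in any library was 34 counts.

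The position at which reads could be counted also differed between the receptors. The deposited Mertk interval (chr2:128698997-128802188, plus strand, mm10) ended 706 bases before the GENCODE gene end and 974 bases before that of RefSeq. The Tyro3 interval (chr2:119797740-119818103, plus strand) ended 1 base short of both, and that of Axl (chr7:25756500-25788733, minus strand) ended where RefSeq's does. Since 3′ reads fall near the end of the transcript, the Mertk counts describe the deposited interval, and whether reads lay beyond it was not tested.

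Gas6, the vitamin K-dependent ligand that binds all TAM receptors, varied more within groups than between them. It had 176, 239, 633 and 412 counts in the batch 1 controls (30.4 ± 15.7 CPM, n = 4). It had 1066, 44, 1140, 575 and 500 in the WD group (50.3 ± 31.5 CPM, n = 5) and 725, 745, 536, 900 and 62 in the batch 2 controls (47.5 ± 26.4 CPM, n = 5). WD replicate 2 and batch 2 control replicate 5 lay far under the rest of their groups. The log2 fold changes were 0.72 (SE 0.65) against batch 1, 0.07 (SE 0.59) against batch 2 and 0.32 (SE 0.54) against all controls, with edgeR FDRs of 1.00, 0.979 and 0.999. Those against batch 2 changed sign with single libraries left out, from -0.21 to 0.36. Annotated transcripts of Tmem255b on the other strand overlap Gas6 (chr8:13465374-13494535, minus strand), although the deposited Tmem255b interval does not, and Tmem255b had 0 to 33 counts per library.

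Pros1, which encodes protein S, a plasma anticoagulant and ligand of Mertk and Tyro3, had 192, 978, 615 and 1830 counts in the batch 1 controls (71.6 ± 47.8 CPM, n = 4). It had 1654, 156, 1507, 1155 and 1318 counts in the WD group (89.3 ± 41.7 CPM, n = 5) and 742, 814, 800, 1067 and 249 in the batch 2 controls (59.3 ± 22.7 CPM, n = 5). WD replicate 2 was again the low library of its group, and batch 2 control replicate 5 of its own. Of the 5 WD libraries, 4 lay above every batch 2 control and 1 below every one of them. The log2 fold changes were 0.31 (SE 0.57) against batch 1, 0.58 (SE 0.41) against batch 2 and 0.44 (SE 0.43) against all controls, none past the edgeR threshold (FDR 1.00, 0.550 and 0.999).

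Over the 14 libraries with group means removed, Gas6 and Pros1 had a Spearman rho of 0.59 and a Pearson r of 0.78, which describes libraries that share their preparation and includes the pair of low libraries above. The other pairs among the 5 tested members had rho between -0.34 and 0.26. By the same measure over 13159 genes, the genes most like Axl were Spcs3 (rho 0.90) and Ppcdc (0.86), those most like Gas6 were Rgs14 (0.92) and Stag2 (0.89), and those most like Pros1 were Tbl1xr1 (0.96) and Arhgef10 (0.94). Slc29a3 (0.89) and Rpl13 (0.88) were nearest to Mfge8. Pearson's r named 3 of the 10 nearest genes again.

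Mfge8, also known as lactadherin or SED1, is made by macrophages and stromal cells and by the epithelium of the epididymis, where it is deposited on sperm. It had 66557, 12742, 6897 and 15930 counts in the batch 1 controls (2496 ± 3139 CPM, n = 4). It had 29625, 48662, 34387, 30688 and 11488 counts in the WD group (2649 ± 1569 CPM, n = 5) and 9260, 8047, 7787, 7069 and 5595 in the batch 2 controls (621 ± 92.6 CPM, n = 5). The batch 2 controls were tightly grouped, and the highest value of all, 7189 CPM, came from control replicate 1 of batch 1, the library with 154631 CPM of epididymis genes.

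Against the batch 2 controls Mfge8 rose 4.22-fold (log2 2.08, SE 0.32, edgeR FDR 0.000824), with all 5 WD libraries above all 5 controls and an exact permutation p of 0.00794. A fit over all 14 libraries as 3 groups gave the same log2 fold change of 2.08 with an edgeR FDR of 0.104. Against the batch 1 controls its log2 fold change was 0.08 (SE 0.72, edgeR FDR 1.00) and the exact permutation p was 0.468. Without control replicate 1 of batch 1 the log2 fold change was 1.51 with an edgeR FDR of 0.566 and an exact permutation p of 0.107, and without replicates 1 and 4 it was 1.69 with an edgeR FDR of 0.241. Against all 9 controls it was 0.86 (SE 0.59, edgeR FDR 0.910, exact permutation p 0.0485), and without control replicate 1 it was 1.85 with an edgeR FDR of 0.00410. The batch 2 controls were lower than the batch 1 controls by edgeR's estimate (log2 -2.02, SE 0.64, FDR 0.475, DESeq2 FDR 0.0411, exact permutation p 0.0317). With single libraries left out that permutation p ran from 0.0179 to 0.114 and was above 0.05 in 8 of 9 cases. Without control replicate 1 edgeR's difference shrank to -0.59 on the log2 scale. The epididymis genes and Mfge8 were thus both highest in the same library, and the part of epididymal RNA in its Mfge8 value was not tested. The log2 ratio of Mfge8 to the macrophage sum overlapped between the groups, at 0.69 ± 0.72 in the WD group (n = 5) and 0.59 ± 0.60 in the batch 2 controls (n = 5). In the batch 1 controls it was 1.54 ± 2.49 (n = 4) and ran from -0.09 to 5.24, highest in control replicate 1.

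**Figure D3:**
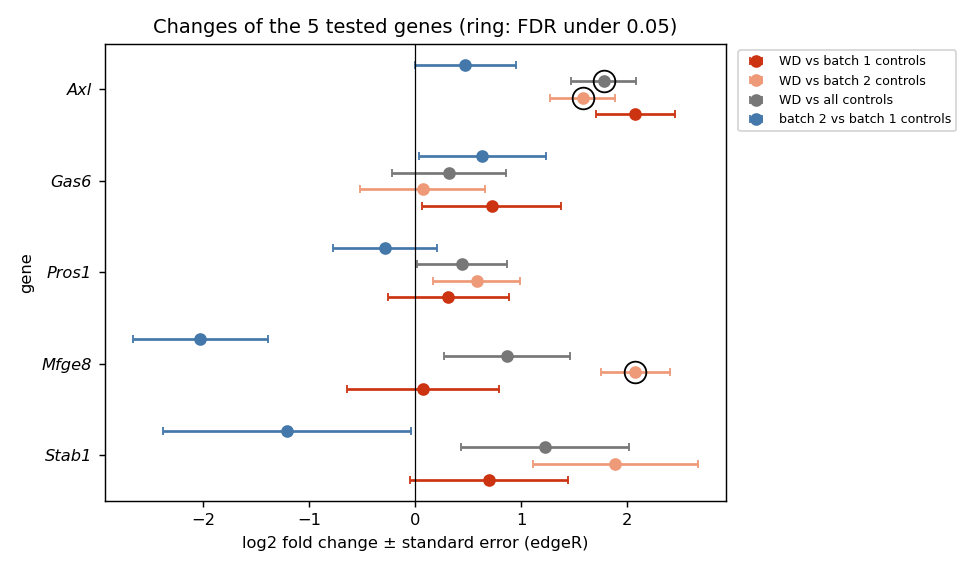
Log2 fold change with its standard error (edgeR) for the 5 tested genes in the 4 comparisons, with a ring around changes at an FDR under 0.05. Axl lies between 1.58 and 2.08 in the 3 diet comparisons, whereas Mfge8 lies between 0.08 and 2.08 and differs by -2.02 between the control groups.

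Stab1, the gene of a scavenger receptor on tissue macrophages and sinusoidal endothelium, ran from 1 to 976 counts. It had 67, 808, 45 and 479 counts in the batch 1 controls (28.3 ± 29.5 CPM, n = 4). It had 976, 655, 354, 557 and 253 counts in the WD group (46.1 ± 23.1 CPM, n = 5) and 338, 1, 19, 240 and 180 in the batch 2 controls (12.3 ± 10.8 CPM, n = 5). All 5 WD libraries lay above 2 of the 4 batch 1 controls, and 4 of them lay above every batch 2 control. The log2 fold changes were 0.70 (SE 0.74), 1.89 (SE 0.78) and 1.22 (SE 0.79) against batch 1, batch 2 and all controls, with edgeR FDRs of 1.00, 0.197 and 0.878. Without control replicate 2 of batch 1 the first was 1.56, and with single libraries left out it ran from 0.31 to 1.56. The exact permutation p was 0.222, 0.0159 and 0.0539 in the same order. The p against batch 2 rose to 0.0794 without WD replicate 1, 2 or 4 and to 0.0556 without WD replicate 3. The p against all controls ran from 0.0202 without control replicate 2 of batch 1 to 0.109 without WD replicate 2, and was also under 0.05 without control replicate 4 of batch 1 (0.0381) or WD replicate 5 (0.0490).

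These counts cannot be assigned to Stab1 alone. Stab1 (chr14:31139017-31168641, minus strand) and Nt5dc2 (chr14:31134853-31139124, plus strand), a gene of a nucleotidase-domain protein, meet tail to tail, and their deposited intervals share 108 bases at both 3′ ends. Nt5dc2 had 74, 802, 45 and 479 counts in the batch 1 controls, 953, 647, 336, 421 and 252 in the WD group and 313, 1, 18, 256 and 178 in the batch 2 controls. The counts of both genes were identical in 3 libraries, and the ratio of Stab1 to Nt5dc2 lay between 0.905 and 1.08 in all libraries except WD replicate 4, where it was 1.32. Nt5dc2 was the gene nearest to Stab1 over the 14 libraries (rho 1.00), followed by Dok2 (0.89). Its log2 fold changes were 0.60 against batch 1, 1.81 against batch 2 and 1.13 against all controls, close to those of Stab1. The sources used here do not say whether strand was used in counting, and how many of the reads came from either gene was not tested.

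**Figure D4:**
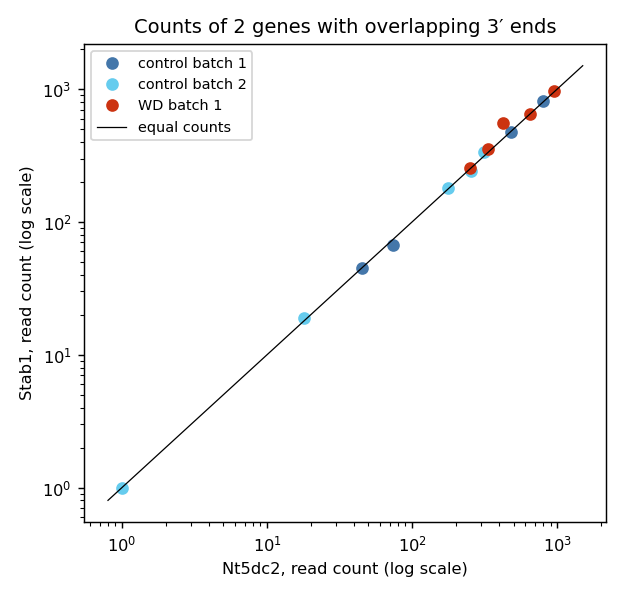
Read counts of Stab1 against those of Nt5dc2 in the 14 libraries on log scales, with a line of equal counts. The libraries run from 1 count of each gene to 976 of Stab1 and 953 of Nt5dc2, and 1 WD library leaves the line, with 557 and 421 counts.

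Across the members, then, 0 of 5 passed edgeR's threshold in batch 1, 2 of 5 (Axl and Mfge8) passed it upward against the batch 2 controls, where 3.93% of all genes did, and 1 of 5 (Axl) against all controls, where 0.435% did. None passed it between the control groups, where 0% of 12106 genes did at 895 genes under an unadjusted p of 0.05, and DESeq2 called 111. The medians of the 5 log2 fold changes were 0.70, 1.58 and 0.86 in the diet comparisons, beside 0.03, -0.0034 and -0.04 over all genes tested. Each of these medians is the value of 1 gene, Stab1, Axl and Mfge8 in that order. The limits given above for Stab1 and Mfge8 therefore hold for them too. The comparisons share libraries, so their values do not support one another, and the filter removed the members with the fewest counts.

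Of 64 further genes of apoptotic cell uptake, 63 were in the table. Against the batch 1 controls 0 of 55 tested passed the edgeR threshold, against the batch 2 controls 10 of 53 rose and 0 fell, and against all controls 4 of 56 rose and 0 fell. Over all genes, 2.48% fell against the batch 2 controls and 0.0948% against all controls, beside the shares called upward given above. Between the control groups 0 of 54 passed. The study picked Lgals3, C1qa, C1qb, C1qc, Sirpa, Lipa and Vav1 as higher in the WD group from these libraries, so their direction is not independent evidence.

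The bridging molecules and surface signals held most of them, with 6 of 13 higher than in the batch 2 controls. The 3 chains of C1q, the complement protein that coats dying cells, rose by log2 1.96 (C1qa, SE 0.28), 2.05 (C1qb, SE 0.27) and 1.82 (C1qc, SE 0.29). Lgals3, which encodes galectin-3, a ligand reported for Mertk, rose from 212 ± 96.1 CPM (n = 5) to 1323 ± 363 CPM (n = 5), a log2 fold change of 2.63. Sirpa, the phagocyte receptor of the CD47 signal that stops engulfment, rose by log2 1.90, and Calr, whose product calreticulin marks cells for uptake, by 0.82. In the batch 1 comparison Lgals3, C1qa, C1qb, C1qc and Sirpa had log2 fold changes of 1.04 to 1.74 at edgeR FDRs of 0.434 to 0.777, and Calr had -0.61.

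Among genes of phagosome digestion and sterol handling, 3 of 13 rose against the batch 2 controls. Lipa, the lysosomal acid lipase, rose from 88.7 ± 16.9 CPM (n = 5) to 474 ± 124 CPM (n = 5), a log2 fold change of 2.40 with an edgeR FDR of 9.78e-06. Dnase2a, the lysosomal nuclease that digests the DNA of engulfed cells, rose by log2 2.39, and Ucp2, a mitochondrial carrier, by 2.15. Against the batch 1 controls the log2 fold changes were 1.96 for Lipa (edgeR FDR 0.434), 0.65 for Dnase2a and 0.76 for Ucp2 (both FDR 1.00). The batch 2 controls differed from the batch 1 controls by log2 -1.76 in Dnase2a and -1.41 in Ucp2 (edgeR FDR 0.492 and 0.475). Nr1h3, the LXR alpha gene, had -0.40 against the batch 2 controls and 0.74 against the batch 1 controls, and Abca1, a cholesterol exporter, had -0.37 and -0.06, and none of these values passed the test.

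Of the engulfment machinery 1 of 10 rose against the batch 2 controls, namely Vav1, a signalling protein of blood cells (log2 2.81, SE 0.77, edgeR FDR 0.0369). Against the batch 1 controls Vav1 had a log2 fold change of 2.66 (SE 1.44) and did not pass. It averaged 24.5 CPM in the WD group, 3.46 CPM in the batch 2 controls and 3.86 CPM in the batch 1 controls. Its lowest control library had 0 counts in either batch. None of 8 other engulfment receptors passed against the batch 2 controls, including Cd36 (log2 0.12), Itgav (0.73) and Lrp1 (0.51). None of the 9 tested genes of TAM ligand carboxylation, receptor shedding and signalling passed either, among them Ggcx, the carboxylase that Gas6 and protein S need (log2 0.14), and Adam17 (0.14) and Adam10 (0.36), proteases that cut TAM receptors from the surface. The median log2 fold changes of the 5 lists were 0.97 for bridging molecules and surface signals, 0.37 for digestion, 0.31 for other receptors, 0.18 for the machinery and -0.01 for carboxylation, shedding and signalling, beside -0.0034 over all genes tested. Against all controls the genes that rose were Lgals3 (log2 2.15), Lipa (2.17), C1qb (1.73) and C1qa (1.70). The macrophage genes above moved in the same comparisons, and their part in these lists was not tested.

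**Figure D5:**
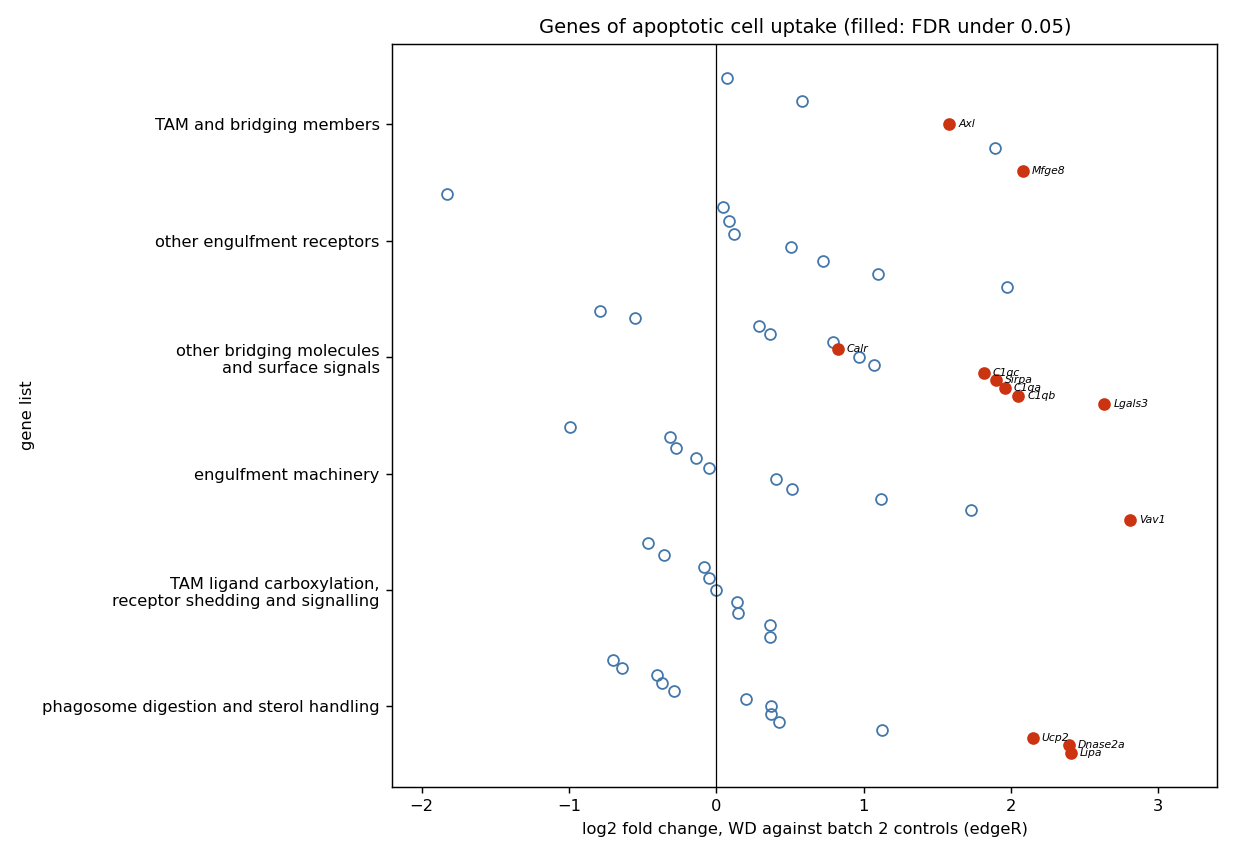
Log2 fold change (edgeR) of each tested gene, WD against batch 2 controls, for the members and 5 lists of apoptotic cell uptake, with filled points at an FDR under 0.05. The filled points all lie above 0, 2 of 5 members and 6 of 13 bridging molecules and surface signals among them, and none lies in the carboxylation, shedding and signalling list.

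Other cell types were measured beside these values. In the batch 1 controls, WD group and batch 2 controls, stromal genes summed to 1036 to 2693, 1731 to 3628 and 1032 to 2404 CPM, endothelial genes to 58.3 to 216, 56.5 to 124 and 61.2 to 170 CPM, and 4 mesothelial genes (Msln, Upk3b, Krt19 and Lrrn4) to 0.0726 to 108, 13.2 to 121 and 35.8 to 95.3 CPM. Against the batch 2 controls, 1 of the 5 stromal genes rose (Col1a1) and all 5 adipocyte genes fell. No endothelial, mesothelial or epididymis gene tested passed in edgeR. Against the batch 1 controls 0 of 5 adipocyte genes passed, with a median log2 fold change of -0.0096. The batch 2 controls had a median of 1.16 over the batch 1 controls in these genes, so diet and batch cannot be told apart in that fall.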

How the data were processed

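RNA of 14 eWAT samples was sequenced by QuantSeq 3′ mRNA-seq. Per the labels and methods, the authors aligned single-end reads with Bowtie2 (mm10) and counted unique and multiple alignments per gene with bedtools, and no normalization was applied to the deposited counts. The deposited log2 values are the authors' TMM and CPM values with 1 added, and they differed by at most 0.0507 from those recomputed here. Deposited gene positions overlapped GENCODE GRCm38 for 22093 of 22197 symbols (99.5%). Whether counting used strand is not given in the sources used here.

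Counts were tested with edgeR 4.0.16 (quasi-likelihood, TMM factors, edgeR's low-count filter, no covariates, Benjamini-Hochberg FDR over all genes tested, threshold 0.05), and log2(CPM + 1) of single members with two-sided exact permutation tests, 20 in all and unadjusted. DESeq2 1.42.0, limma 3.58.1 (voom), R 4.3.3, Python 3.11.15, numpy 2.4.6, pandas 2.3.3, scipy 1.17.1 and matplotlib 3.10.9 were also used. The edgeR script was tested on simulated data. Alternatives were other normalizations, filters and tools, a pseudocount of 0.1, all 14 libraries with a batch term or 3 groups, a replicate block, and single libraries left out. Named genes were the members, list genes past the threshold and the 2 genes nearest to each member, and the list genes named that did not pass (Cd36, Itgav, Lrp1, Ggcx, Adam10, Adam17, Nr1h3, Abca1), Col1a1, Tmem255b, single macrophage genes and Nt5dc2's tests were chosen after their values were seen. The members and lists were chosen with earlier results of these data known. Groups come from the labels, which do not say that replicates share anything beyond a number, so p-values measure the spread between these samples.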

Additional observations from a re-analysis of the deposited data

Results flagged for a closer look

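Of 20 gene and group sets with any spread, 6 had a library whose gap to its neighbour took up most of the group's range. About 1 would be flagged if values were normally distributed, which sets made mostly of 0 counts are not. Values are log2(CPM + 1). Gas6 was low in WD replicate 2 (2.5162, others 5.41 to 6.42) and in batch 2 control replicate 5 (2.8458, others 5.36 to 6.17). Pros1 was low in WD replicate 2 (4.1487, others 6.53 to 6.88), so that 1 library was low for both TAM ligands. Mertk stood out in WD replicate 1 (1.935, from 40 counts) and in batch 1 control replicate 1 (0.148, from 1 count, under the floor). Tyro3 stood out in WD replicate 1 (1.3522, from 22 counts). Each was against 0 counts in every other library of the group, so the gap filled the whole range by construction. These flags therefore cannot be set against the number given for normal values.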

How the results depend on the processing

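Axl kept its direction in every alternative run. Its FDR against batch 1 passed 0.05 with DESeq2 (log2 2.00) and without control replicate 4, and ranged from 0.0496 to 0.801 with single libraries left out. Mfge8 against batch 1 turned to -0.052 with RLE size factors, -0.080 where each library had to reach a CPM of 1 and -0.052 with DESeq2, and ran from -0.33 to 1.51 with single libraries left out. The exact permutation difference of Pros1 there ran from -0.15 to 0.86. Gas6 against batch 2 ran from -0.21 to 0.36 in edgeR and from -0.61 to 0.66 in the permutation difference, whose sign in the full set was negative, and the latter ran from -0.14 to 0.84 against all controls. Pros1 between the control groups ran from -0.59 to 0.22 in edgeR and from -0.58 to 0.30 in the permutation difference. The cause of these sign changes was not tested.

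Genes called in batch 1 numbered 0, and 114 with DESeq2, 108 without control replicates 1 and 4, 1 in the 3-group fit and 0 to 48 with single libraries left out, most without control replicate 4. Members called there numbered 0, and 1 with DESeq2, and 0 to 1 with single libraries left out. Against batch 2 the 3-group fit called 140 genes in place of 773, and 1 member in place of 2. Between the control groups 0 genes were called, and 111 with DESeq2, 28 without control replicates 1 and 4, 1 in the 3-group fit and 0 to 2 with single libraries left out. DESeq2 called 1 member there (Mfge8). Against all controls the 67 genes became 128 where each library had to reach a CPM of 1, 236 with DESeq2, 223 with limma-voom, 619 without control replicates 1 and 4, 1 with a batch term and 28 to 289 with single libraries left out, fewest without WD replicate 3 and most without control replicate 4 of batch 1. Members called there were 2 without control replicates 1 and 4, 0 with a batch term and 1 to 2 with single libraries left out. Genes of the uptake lists called against batch 1 numbered 0, and 2 with DESeq2, without control replicates 1 and 4 or without control replicate 4. Against all controls the 4 became 8 without control replicates 1 and 4, 0 with a batch term and 3 to 7 with single libraries left out, most without control replicate 4 of batch 1. DESeq2 called 1 between the control groups. Members with an exact permutation p under 0.05 numbered 0 to 1 between the control groups and 1 to 3 against all controls with single libraries left out, and the p of Mfge8 against all controls ran from 0.00233 without control replicate 1 to 0.129 without WD replicate 2.

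Same-numbered libraries did not deviate together (correlations from -0.04 to 0.08), so the replicate numbers were not taken to pair them. With the replicate number as a block, edgeR called 0 genes in batch 1, 594 against batch 2, 0 between the control groups and 93 against all controls, and 0, 2, 0 and 1 members in the same order. Under this block Pros1 between the control groups turned to 0.18. Pearson's r kept 3 of the 10 nearest genes. Mertk and Tyro3 had too few counts to be tested, and the part of depth in this was not tested. A level under 3 counts in a library was not taken as detection, though such counts entered the means, tests and flags. Stab1 in batch 2 control replicate 2, at 1 count, is among them.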
